A study of Mus musculus with 20 samples.

Results

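Fibroblast growth factor (FGF) signalling genes were examined in RNA-seq of the mouse cochlea: 10 listed genes out of the 24411 genes in the tables, taken as a list of named genes. They comprised the ligands Fgf1, Fgf2, Fgf8 and Fgf10, the receptors Fgfr1, Fgfr2 and Fgfr3, the decoy-like receptor Fgfrl1, and the feedback inhibitors Spry2 and Spry4. The libraries came from Bai1tm2b/+ (Het) and Bai1tm2b/tm2b (Homo) littermates at postnatal day 7 (P7) and postnatal day 22 (P22). The tm2b allele lacks exons 3 and 4 of Adgrb1, the gene for the adhesion receptor BAI1, and carries a lacZ cassette in their place. Every library therefore carries at least 1 copy of the deletion, and no wild-type cochlea was included. Each library was a pool of 4 mice, dissected to hold the sensory epithelium and the spiral ganglion neurons (SGNs).

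There were 3 libraries per genotype at P22 and 7 per genotype at P7. The P22 libraries and P7 replicates 5 to 7 were given as estimated read counts, between 31108600 and 58807200 per library, and P7 replicates 1 to 4 as whole numbers that sum to 999644 to 999777 per library, read here as rounded TPM, a per-library share corrected for transcript length. For the count libraries a level is a CPM, the count after every library is brought to the same total, on a scale set jointly over the 12 count libraries. A gene was called when its adjusted p was below 0.05, its log2 fold change was beyond 0.5 in size and its standard error (SE) was below 0.5. The labels do not tie a replicate number to a litter or to a single animal, so the p-values measure the spread between pools.

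FGFs are secreted ligands that bind receptor tyrosine kinases on the cell surface, with heparan sulfate or Klotho proteins as coreceptors. The active receptor recruits adaptor proteins and switches on the RAS and MAP kinase cascade, which raises ETS factors such as Etv4 and Etv5 and, with them, the inhibitors Spry, Spred and Dusp6 that dampen the same cascade. In the developing organ of Corti, FGF8 from inner hair cells acts on FGFR3 in the neighbouring pillar cells, and FGFR1 is needed to build the sensory patch. FGF10 acts earlier, in the otic epithelium, mainly through FGFR2.

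The sequence before the start site is given for Fgfr3 and Fgfrl1. Fgfr3 is the member the genotype comparison turns on. Fgfrl1 was, like Fgfr3, 1 of 6 members called lower at P22 than at P7. It was also the only member whose window held the motif marked below. Both lie on the plus strand of chromosome 5 and both are windows of 250 bases upstream of the RefSeq start (build GRCm38.p6), Fgfr3 at chr5:33721474-33721723 and Fgfrl1 at chr5:108693979-108694228. Capitals mark CCGGAAG, an ETS-type motif that was searched on both strands and chosen after the values had been seen.
Fgfr3: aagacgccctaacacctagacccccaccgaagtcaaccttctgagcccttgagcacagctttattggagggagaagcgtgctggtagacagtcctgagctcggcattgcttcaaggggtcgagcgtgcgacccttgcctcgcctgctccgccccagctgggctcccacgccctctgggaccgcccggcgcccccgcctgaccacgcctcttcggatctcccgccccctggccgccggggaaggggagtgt
Fgfrl1: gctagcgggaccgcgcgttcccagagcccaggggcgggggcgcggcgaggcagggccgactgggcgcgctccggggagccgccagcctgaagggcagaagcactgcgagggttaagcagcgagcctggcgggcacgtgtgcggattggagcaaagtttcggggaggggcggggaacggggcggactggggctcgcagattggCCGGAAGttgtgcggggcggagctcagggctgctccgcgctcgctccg
The motif was present in 1 of the 7 windows found for 6 members, that of Fgfrl1, and in 0 of 11 windows for 9 feedback and target genes of the pathway. Over all RefSeq windows, 6.91% held it. These letters are a description of the windows, and no binding was measured.

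Before the members, the targeted gene was checked. Adgrb1 at P22 had 154, 152 and 167 CPM in Bai1tm2b/+ and 103, 100.2 and 105 CPM in Bai1tm2b/tm2b, a log2 fold change of −0.61 (SE 0.059, adjusted p = 0.00060). Reads from the exons that remain still count toward the gene, so its level need not fall to 0. In the P7 count libraries it had 32.1, 56.4 and 36.0 CPM against 25.9, 21.6 and 31.2 CPM, with no overlap (−0.64, SE 0.23, adjusted p = 0.894). In the P7 rounded TPM libraries it had 10, 12, 8 and 7 TPM against 9, 9, 10 and 12 TPM, with overlap (0.02, SE 0.13, adjusted p = 0.930). The gene-level values thus did not overlap between the labels in the 2 count sets and overlapped in the TPM set. Among all genes tested, 33.7% at P22 and 10.7% in the P7 count libraries had no overlap, and Adgrb1 was called at P22 only.

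The first question was how much of each gene the P22 cochlea contains. Levels between genes are compared per kilobase of exon (CPM per kb). The length is the union of all annotated exons, so the order depends on that choice. In Bai1tm2b/+ at P22, the ligands Fgf1 (96.9 ± 3.9, SD, n = 3) and Fgf10 (51.7 ± 5.2) stood above every receptor. Fgfr1 followed at 28.6 ± 0.80 CPM per kb, then Fgfrl1 at 12.8 ± 1.2, Spry2 at 11.4 ± 0.17, Fgfr3 at 6.32 ± 0.60, Fgfr2 at 5.30 ± 0.27 and Spry4 at 1.87 ± 0.27. No neighbouring pair in this order overlapped between libraries. Without division by length, Fgfr1 (mean 282 CPM) was above Fgf10 (238 CPM) in Bai1tm2b/+. Fgf2, a ligand without a classical secretion signal, was at 0.028 ± 0.018, and Fgf8 had no read in any of the 3 libraries. The order was the same in Bai1tm2b/tm2b down to Spry4, with Fgf1 at 70.6 ± 2.2 and Fgfr3 at 10.1 ± 0.36 CPM per kb.

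At P22, Fgfr3 was the one member called between genotypes, and it was higher in Bai1tm2b/tm2b. Fgf1 and Fgf10 were lower with adjusted p below 0.05 but less than the fold threshold. Neither kept that adjusted p with libraries scaled to SGN markers, and both were called lower with scaling to hair cell or supporting cell markers. Of the 10 members, 8 passed the filter on low counts and Fgf2 and Fgf8 did not. The call was made for 1 of those 8, against 3.15% of the 15443 genes tested, and the adjusted p was below 0.05 for 3 of the 8, against 12.3% of all genes. All 8 had Bai1tm2b/+ and Bai1tm2b/tm2b libraries that did not overlap, 5 higher and 3 lower in Bai1tm2b/tm2b, where 33.7% of all genes tested had no overlap.

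**Figure D1:**
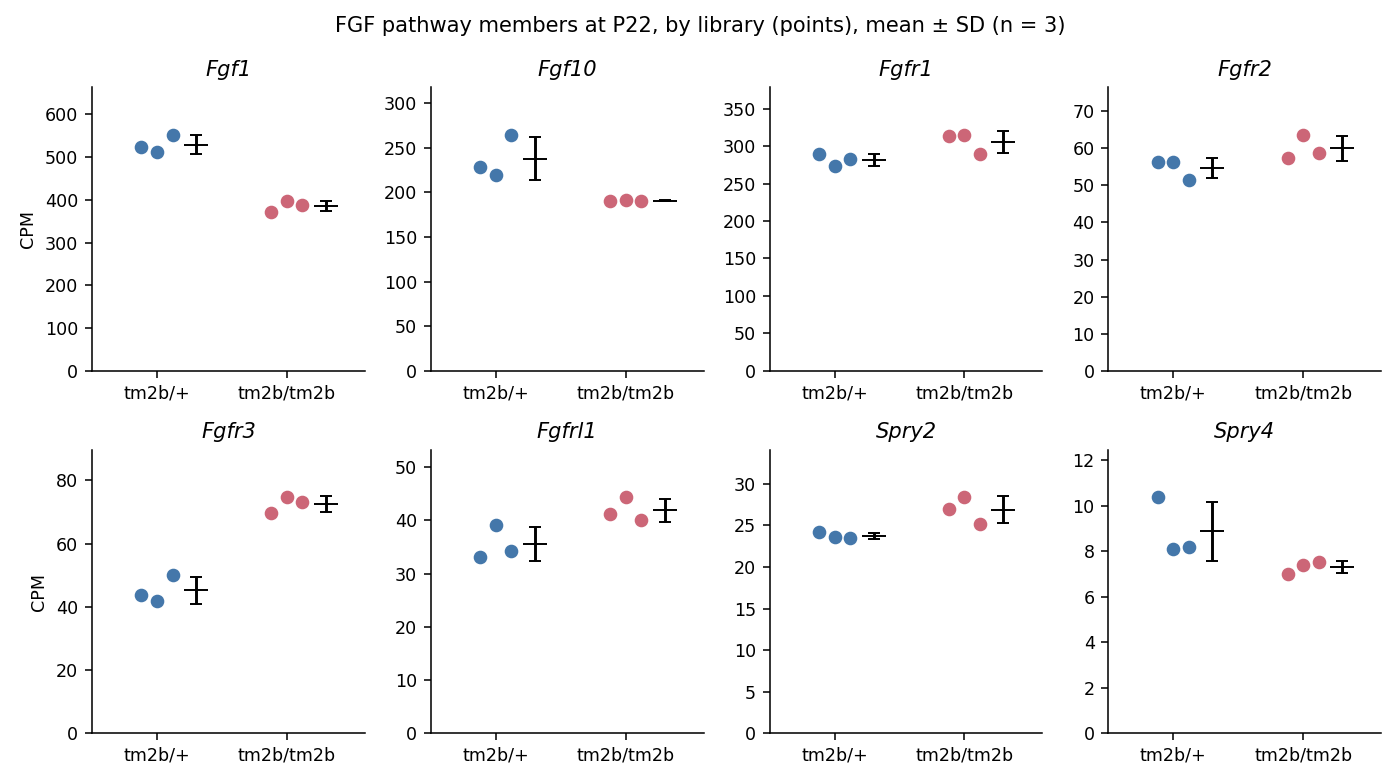
CPM of the 8 members that passed the filter at P22, with 1 panel per gene and 1 point per library (blue Bai1tm2b/+, red Bai1tm2b/tm2b, black bar mean ± SD, n = 3). The genotypes do not overlap in any panel, and the widest relative gap is in Fgfr3, 42.0 to 50.1 CPM against 69.8 to 74.7 CPM.

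Fgfr3 encodes the receptor that marks pillar and Deiters cells, the supporting cells around the hair cells. Its CPM at P22 was 43.7, 42.0 and 50.1 in the 3 Bai1tm2b/+ libraries and 69.8, 74.7 and 73.2 in the 3 Bai1tm2b/tm2b libraries. Every Bai1tm2b/tm2b library was above every Bai1tm2b/+ library. The fold change was 1.61, or 0.69 on the log2 scale (SE 0.076, adjusted p = 0.0012), and the exact 2-sided permutation p was 0.1, the smallest that 3 against 3 allows. An antisense gene covers 13.9% of its exon bases. Whether the counting used strand is not given in the sources used here, so reads of that partner cannot be told apart. In the GENCODE annotation of GRCm38, Fgfr3 spans chr5:33721674-33737068.

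The other receptors differed less. Fgfr1, the receptor with the highest level here, had 289, 273 and 283 CPM in Bai1tm2b/+ and 313, 316 and 289 in Bai1tm2b/tm2b, a difference of 0.13 (SE 0.056, adjusted p = 0.170). Fgfr2, whose epithelial splice form binds FGF10, had 56.3, 56.3 and 51.5 CPM against 57.4, 63.7 and 58.8 (0.14, SE 0.068, adjusted p = 0.203). Fgfrl1, which binds FGFs but lacks the kinase domain, had 33.0, 39.1 and 34.3 CPM against 41.1, 44.4 and 40.1 (0.25, SE 0.080, adjusted p = 0.070). All 3 point the same way as Fgfr3, and none passed the adjusted threshold.

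Among the ligands, Fgf1, which binds all FGF receptors, had 524, 511 and 553 CPM in Bai1tm2b/+ and 373, 397 and 387 CPM in Bai1tm2b/tm2b. The genotypes were separated by more than 100 CPM, and the log2 fold change was −0.45 (SE 0.057, adjusted p = 0.0019), just short of the fold threshold. Fgf10 had 229, 220.2 and 265 CPM in Bai1tm2b/+ and 190.7, 191 and 190.2 CPM in Bai1tm2b/tm2b (−0.31, SE 0.071, adjusted p = 0.019). Its Bai1tm2b/tm2b libraries lay within 1 CPM of each other, and the adjusted p was above 0.05 when Bai1tm2b/+ replicate 1 (0.055) or Bai1tm2b/tm2b replicate 2 (0.052) or 3 (0.058) was left out. Of the SGN markers, 10 of 11 were lower in Bai1tm2b/tm2b. With libraries scaled to them, Fgf1 was at −0.16 (adjusted p = 0.083) and Fgf10 at −0.025 (adjusted p = 0.772). With scaling to hair cell or supporting cell markers both were called lower, down to −0.93 for Fgf1 and −0.79 for Fgf10. The part of any cell type in these differences was not tested. Fgf2 had 3 to 11 reads per Bai1tm2b/+ library and 1 to 5 per Bai1tm2b/tm2b library, too few to test. Fgf8 had 0 reads in 5 of the 6 libraries and 2 in Bai1tm2b/tm2b replicate 3.

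The feedback inhibitors did not pass the test. Spry2 had 24.2, 23.6 and 23.5 CPM in Bai1tm2b/+ and 27.0, 28.4 and 25.2 CPM in Bai1tm2b/tm2b (0.19, SE 0.075, adjusted p = 0.130). Spry4 went the other way, with 10.4, 8.08 and 8.19 CPM against 6.997, 7.40 and 7.51 CPM (−0.27, SE 0.13, adjusted p = 0.209). These paralogues are both induced by the MAP kinase cascade and both restrain it.

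Beyond the members, 4 of the 48 pathway genes tested were called at P22, or 8.33%, beside the 3.15% over all genes. In the list of feedback and target genes, 1 of 11 tested was called, Dusp5, a phosphatase of nuclear ERK, which fell from 4.14 ± 0.083 to 2.27 ± 0.38 CPM (−0.86, SE 0.19, adjusted p = 0.017). The median over that list was 0.02, beside 0.01 over all genes. Among other receptors and coreceptors 1 of 7 was called, Fgfbp1, a carrier that frees FGFs from the matrix, at 5.43 ± 0.40 against 8.73 ± 1.8 CPM (0.69, SE 0.16, adjusted p = 0.022). The 4 FGF homologous factors, which stay inside the cell and bind sodium channels of neurons, gave 2 calls. Fgf12 was at 294 ± 27 CPM in Bai1tm2b/+ and 202 ± 7.5 in Bai1tm2b/tm2b (−0.54, SE 0.071, adjusted p = 0.0025), and Fgf13 at 1.95 ± 0.41 against 0.956 ± 0.27 CPM (−1.01, SE 0.30, adjusted p = 0.049). None of the 7 other secreted ligands tested and none of the 19 intracellular transducers were called.

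Markers of several cochlear cell types also differed between the P22 genotypes, and their part in the differences of Fgfr3, Fgf1 and Fgf10 was not tested. In bulk tissue, fewer cells of a type and less RNA per cell cannot be told apart. The 10 hair cell markers were all higher in Bai1tm2b/tm2b (median 0.51, 3 called: Otof, Ocm and Chrna10), with a summed level of 458 to 484 CPM in Bai1tm2b/+ and 574 to 683 in Bai1tm2b/tm2b. The 11 supporting cell markers were all higher as well (median 0.27, 1 called: Epyc), at 3098 to 3435 against 3859 to 4338 CPM. Of the 9 pillar and Deiters cell markers 6 were higher and 3 lower (median 0.15), with Prox1 called lower (−0.59, SE 0.10, adjusted p = 0.0066). Their summed level was 2158 to 2607 against 2758 to 3299 CPM. Most of that sum came from Ceacam16 (mean 1478 against 1858 CPM) and S100a1 (614 against 862 CPM).

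The list of central glia, cells that should be rare in a cochlear dissection, was higher in Bai1tm2b/tm2b in 7 of 7 markers (median 0.69, 5 called: Gfap, Olig2, Olig1, Mog and Ermn), from 502 to 645 CPM in Bai1tm2b/+ to 716 to 1125 CPM in Bai1tm2b/tm2b. Astrocytes are known to express Fgfr3, and no marker of this list was at 0, though Opalin was at 0.18 to 0.53 CPM in Bai1tm2b/+. The 11 SGN markers were lower in 10 cases (median −0.30, 1 called: Nefh), from 15714 to 17782 CPM to 11806 to 13461 CPM. Schwann cell markers had a median of −0.10 with 0 of 8 called, fibrocyte and mesenchyme markers 0.11 with 0 of 8 called, bone markers −0.24 with 0 of 5 called and blood markers 1.61 with 0 of 7 called.

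The call for Fgfr3 depended on which of 3 marker lists, supporting cell, hair cell or SGN, a library was scaled to. Scaling to the central glia markers was not run. With libraries scaled to the supporting cell markers, Fgfr3 was 0.41 higher (adjusted p = 0.0034, under the fold threshold), and with hair cell markers 0.21 higher (adjusted p = 0.227). Scaled to SGN markers, it was 0.98 higher. It stayed higher in Bai1tm2b/tm2b in every one of the 13 alternatives, and leaving out each library in turn gave 0.63 to 0.77 with adjusted p up to 0.0092.

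**Figure D2:**
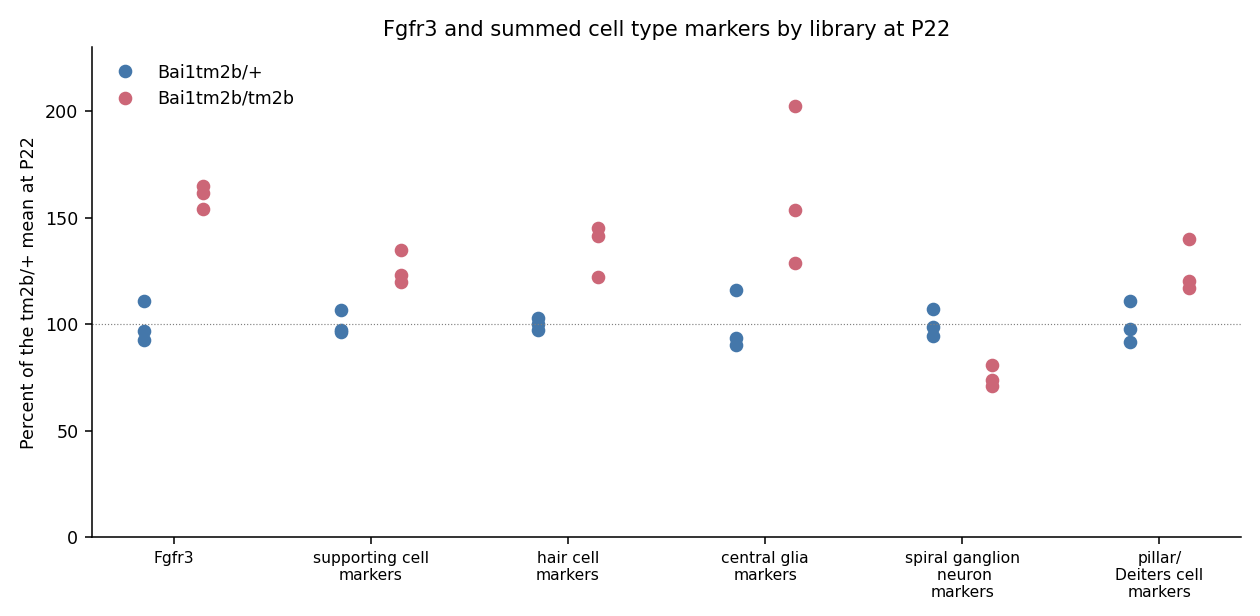
Fgfr3 and the summed CPM of 5 marker lists in the 6 P22 libraries, as a percent of the Bai1tm2b/+ mean (blue Bai1tm2b/+, red Bai1tm2b/tm2b, 1 point per library). Fgfr3 lies at 154 to 165% in Bai1tm2b/tm2b, hair cell markers at 122 to 145%, supporting cell markers at 120 to 135%, central glia markers at 129 to 202% and SGN markers at 71.0 to 80.9%.

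Genes that varied like Fgfr3 were ranked by Pearson's r over the 12 count libraries after the mean of each age was subtracted. The 5 highest were Dpp4 (0.976), Rorb (0.969), Gnpnat1 (0.963), Rassf6 (0.962) and Ocm (0.950), the last being the calcium buffer oncomodulin of outer hair cells. These points share libraries and genotype, so r is a description only. The genotype difference was left in the values ranked, so the choice itself favoured genes that differ at P22 as Fgfr3 does. Their calls are thus no separate result. At P22, Dpp4 (0.55), Rorb (0.67), Rassf6 (0.54) and Ocm (0.70) were called higher in Bai1tm2b/tm2b, and Gnpnat1 (0.32) was not called. Over all genes tested, 3.15% were called in either direction.

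At P7 the same genotype comparison gave no called member in either set of libraries. In the count libraries, 0 of 10 members and 0 of 16026 genes (0%) were called by edgeR, with 763 genes at an unadjusted p below 0.05, while DESeq2 called 44 genes higher and 4 lower and no member. Fgfr3 had 209.7, 152 and 184 CPM in Bai1tm2b/+ and 169.6, 235 and 213 CPM in Bai1tm2b/tm2b, ranges that overlap, with a difference of 0.20 (SE 0.15, adjusted p = 0.894). Its interval of 2 SE ran from −0.10 to 0.50, which includes 0 and ends short of the 0.69 measured at P22.

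Fgf1 had 54.4, 82.4 and 52.4 CPM in Bai1tm2b/+ and 52.3, 34.7 and 44.1 CPM in Bai1tm2b/tm2b, with no overlap (−0.50, SE 0.22, adjusted p = 0.894). It was 1 of 10 members without overlap in this set, beside 10.7% of all genes tested. Bai1tm2b/+ replicate 6, the deepest library and the one with the most Adgrb1 (56.4 CPM) and the highest SGN marker sum (3173 CPM), held the top value. Without it the difference was −0.26. Fgf10 had 70.6, 109 and 94.0 CPM against 41.2, 86.1 and 83.5 CPM (−0.36, SE 0.27), with Bai1tm2b/tm2b replicate 5 lowest. Fgf8, at 135 to 189 reads per library, differed by 0.33 (SE 0.27), and Fgf2, at 24 to 56 reads, by −0.15 (SE 0.27). The remaining receptors and inhibitors, Fgfr1, Fgfr2, Fgfrl1, Spry2 and Spry4, differed by −0.01 to 0.09.

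In the rounded TPM libraries, the call was made for 0 of the 8 members tested, against 0.826% of 11740 genes, and Fgf2 and Fgf8 fell below the minimum of 5 TPM. Fold changes here are on the log2(TPM + 1) scale. Fgfr1 had 87, 82, 66 and 71 TPM in Bai1tm2b/+ and 96, 96, 93 and 108 TPM in Bai1tm2b/tm2b, the 1 of 8 members with no overlap, beside 14.8% of all genes tested (0.25, SE 0.069, adjusted p = 0.04998, exact permutation p = 0.029, the smallest that 4 against 4 allows). This p was below 0.05 by a narrow margin, and it was 0.120 with the replicate number as a block, 0.232 once a trend with transcript length was removed, and above 0.05 when any 1 of 6 of the 8 libraries was left out. In the count libraries at the same age Fgfr1 differed by −0.01 (SE 0.11).

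The ligands had the opposite sign between the P7 sets. Fgf1 had 35, 41, 31 and 25 TPM in Bai1tm2b/+ and 34, 45, 45 and 44 TPM in Bai1tm2b/tm2b (0.24, SE 0.12, adjusted p = 0.176). Fgf10 had 41, 43, 26 and 32 TPM against 38, 55, 56 and 51 TPM (0.39, SE 0.15, adjusted p = 0.098). In the count libraries both pointed lower, and neither set called either gene. SGN markers were higher in 10 of 11 cases in the TPM set (median 0.15) and lower in 9 of 11 in the count set (median −0.31), a difference whose part in the ligands' signs was not tested. Fgfr3 had 46, 42, 35 and 37 TPM against 45, 41, 45 and 47 TPM, with overlap (0.05, SE 0.070, adjusted p = 0.653). Called markers in this set included Otog and Otof, higher by 0.56 and 0.54, and Mog and Hbb-bs, at −0.84 and −1.42.

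**Figure D3:**
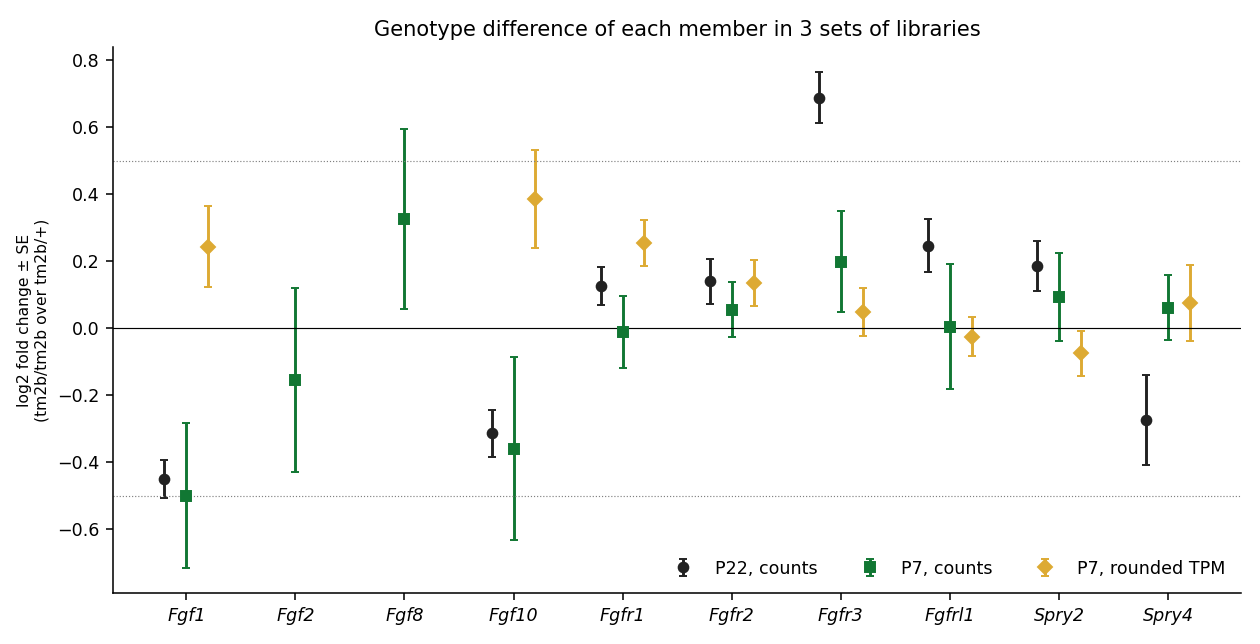
Log2 fold change (Bai1tm2b/tm2b over Bai1tm2b/+) ± SE of each member in the P22 count libraries (circles), the P7 count libraries (squares) and the P7 rounded TPM libraries (diamonds), with dotted lines at −0.5 and 0.5. Fgfr3 at P22 lies at 0.69 and is above the upper line, and Fgf1 and Fgf10 are below 0 in both count sets and above 0 in the TPM set.

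Whether the genotype effect itself differed between P22 and P7 was tested in the 12 count libraries. No member was called, against 0.0306% of 16314 genes (5 genes, and 1666 at an unadjusted p below 0.05, where DESeq2 called 119 genes and no member). Fgfr3 had the smallest p of the members, a difference of 0.50 (SE 0.18, adjusted p = 0.369 in edgeR). Spry4 differed by −0.32 (SE 0.15, adjusted p = 0.506). For Fgf1 and Fgf10 the differences were 0.07 (SE 0.24) and 0.06 (SE 0.32), both adjusted p above 0.94. A larger effect of genotype on Fgfr3 at P22 than at P7 was thus not established over all genes.

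The largest differences of the members lay between the ages. Fgf1 and Fgf10 were higher at P22, and Fgfr2, Fgfr3, Fgfrl1, Spry2, Spry4 and Fgf2 were lower. Of the 10 members, 2 were called higher, beside 25.9% of 16314 genes, and 6 were called lower, beside 28.7%. The P7 and P22 libraries were separate batches, so age and batch cannot be told apart in any of these values.

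**Figure D4:**
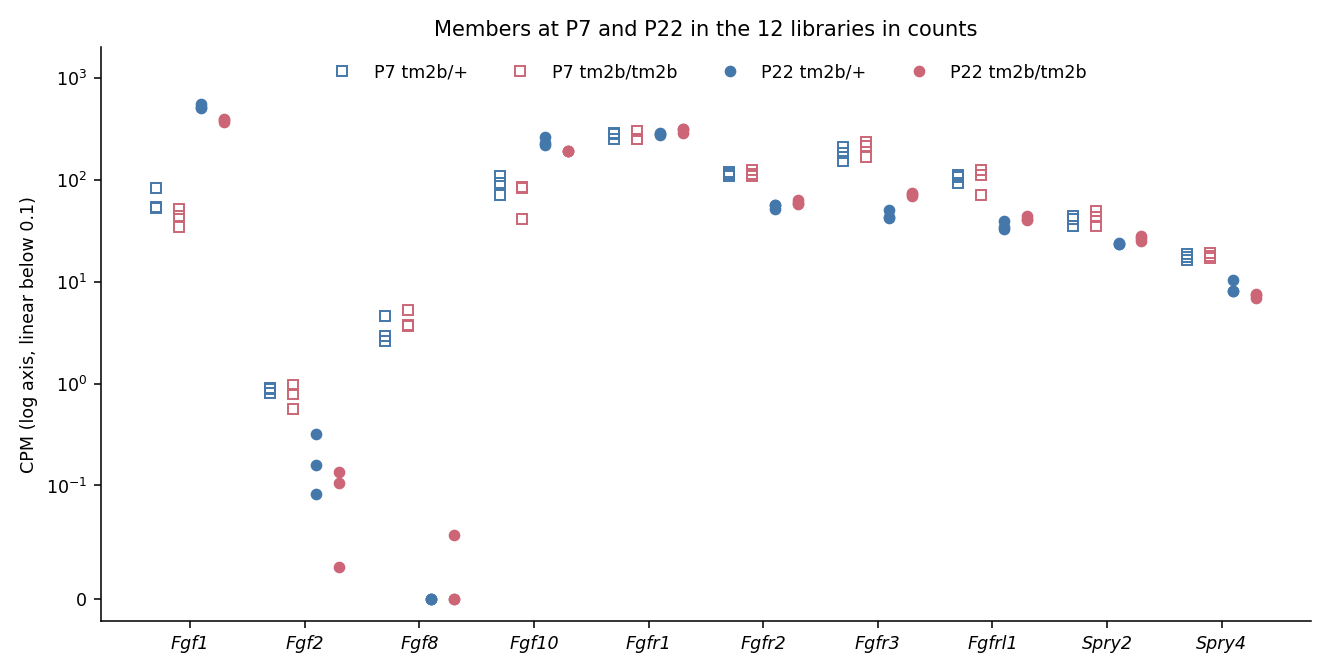
CPM of each member in the 12 count libraries, on a log axis that is linear below 0.1 (open squares P7, filled circles P22, blue Bai1tm2b/+, red Bai1tm2b/tm2b). Fgf1 and Fgf10 rise from P7 to P22, Fgfr1 stays between 251 and 316 CPM, and the other members are lower at P22, with Fgf8 at 0 in 5 of 6 P22 libraries.

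Among the ligands, Fgf1 was at 34.7 to 82.4 CPM at P7 and 373 to 553 CPM at P22. The means of 53.4 ± 16 and 458 ± 80 CPM (SD, n = 6) gave a fold change of 8.60 (3.10 on the log2 scale, SE 0.13, adjusted p = 2.80e-10). Fgf10 went from 80.7 ± 23 to 214 ± 30 CPM (2.66-fold, 1.41, SE 0.16, adjusted p = 3.41e-06). Both were higher in every P22 library than in any P7 library. Fgf2 was low throughout and fell from 0.822 ± 0.14 to 0.140 ± 0.10 CPM (−2.61, SE 0.35, adjusted p = 1.53e-05). Of its exon bases, 9.4% overlap Nudt6 on the opposite strand, so its few reads may be shared with that gene.

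Fgf8, the ligand that inner hair cells send to pillar cells, was detected in all 6 P7 count libraries (189, 165 and 135 reads in Bai1tm2b/+ and 154, 180 and 184 in Bai1tm2b/tm2b). At P22 it had 2 reads in all, both in 1 library. Summed over libraries, this was 1007 against 2 reads, a ratio of rates of 382 with an exact 95% interval of 106 to 3161 that covers counting error only. The SE of its fitted change was 0.502, just over the limit, so it was not called.

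The receptors did not move together. Fgfr3 was at 152 to 235 CPM at P7 and 42.0 to 74.7 CPM at P22, with means of 194 ± 31 and 58.9 ± 15 CPM, 3.38-fold lower (−1.76, SE 0.094, adjusted p = 2.55e-09). Fgfrl1 fell from 103 ± 19 to 38.7 ± 4.3 CPM (−1.42, SE 0.12) and Fgfr2 from 116 ± 5.8 to 57.3 ± 4.0 CPM (−1.01, SE 0.049). Fgfr1 was at 272 ± 22 CPM at P7 and 294 ± 17 CPM at P22, ranges that overlap (0.11, SE 0.061, adjusted p = 0.104, interval of 2 SE from −0.0087 to 0.24). The median over all genes was −0.05.

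Per kilobase of exon, the order of the members turned over between the ages. In Bai1tm2b/+ at P7, Fgfrl1 (37.4 ± 3.5 CPM per kb) came first, then Fgfr1 (27.9 ± 2.0) and Fgfr3 (25.4 ± 4.1), which overlapped each other. Fgf10 (19.8 ± 4.2) overlapped both Fgfr3 and Spry2 (19.4 ± 2.1), and Fgf1 (11.5 ± 3.1) overlapped Fgfr2 (11.1 ± 0.47). Spry4 (3.70 ± 0.25), Fgf8 (2.52 ± 0.81) and Fgf2 (0.13 ± 0.0084) came last. By mean level, Fgf1 thus went from place 6 to place 1, and Fgfr3 from place 3 to place 6. At P7, Fgfr3 overlapped both its neighbours, and Fgf1 overlapped Fgfr2 but not Spry2. In the rounded TPM libraries of Bai1tm2b/+ at P7, Fgfr1 (mean 76.5 TPM) was above Fgfrl1 (54.75 TPM).

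The feedback inhibitors and targets were lower at P22 as a list. Spry2 fell from 41.5 ± 5.4 to 25.3 ± 2.0 CPM (−0.71, SE 0.081) and Spry4 from 17.8 ± 1.0 to 8.09 ± 1.2 CPM (−1.15, SE 0.078). Of the 11 other feedback and target genes tested, 9 were called lower and 0 higher, with a median of −0.94. Over all genes tested, 28.7% were called lower and 25.9% higher. The ETS factors Etv4 (24.4 ± 3.0 to 4.18 ± 0.57 CPM, −2.54, SE 0.077) and Etv5 (86.0 ± 9.3 to 24.8 ± 4.1 CPM, −1.80, SE 0.089) and the ERK phosphatase Dusp6 (52.4 ± 4.4 to 19.99 ± 1.4 CPM, −1.39, SE 0.064) changed most. Il17rd, Etv1, Spred2, Spred3, Spred1 and Spry1 fell by 1.21 to 0.60 on the log2 scale. Dusp4 (−0.41) and Dusp5 (0.22) did not pass.

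**Figure D5:**
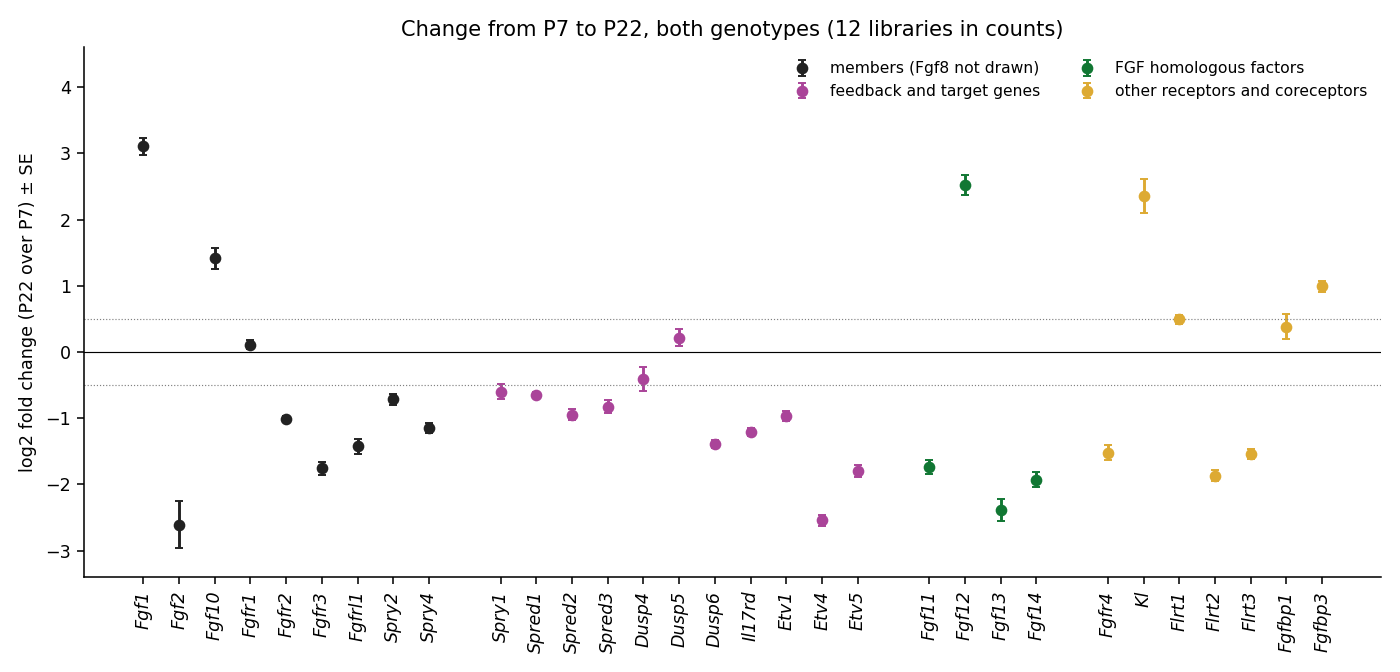
Log2 fold change from P7 to P22 ± SE over the 12 count libraries for the members other than Fgf8 and for 3 lists of pathway genes, with dotted lines at −0.5 and 0.5. Of the 11 feedback and target genes, 9 lie below −0.5, while the FGF homologous factors and the coreceptors lie on both sides of 0.

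The other parts of the pathway were mixed, and the counts below stand beside 25.9% called higher and 28.7% called lower over all genes tested. Among 12 other ligands tested, 5 were called higher and 1 lower, led by Fgf4 (0.034 to 1.25 CPM, 4.95, SE 0.44), Fgf18 (5.26 to 30.5 CPM, 2.53, SE 0.12) and Fgf9 (18.8 to 89.0 CPM, 2.23, SE 0.10). Of the FGF homologous factors, Fgf12 rose from 43.0 to 248 CPM (2.52, SE 0.15) and Fgf13 (−2.39), Fgf14 (−1.93) and Fgf11 (−1.74) fell. Kl, the coreceptor Klotho, rose from 2.71 to 14.3 CPM (2.36, SE 0.25), and the transmembrane FLRT proteins Flrt2 (−1.87) and Flrt3 (−1.53), which bind FGF receptors, fell. Of 7 receptors and coreceptors, 2 were called higher and 3 lower. Of 19 transducers, 4 were called higher and 2 lower, with Frs3, an adaptor of the receptor, at 1.71 and Nras and Shc1 at −1.23 and −1.17.

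Cell type markers moved strongly with age as well, and their part in these changes was not tested. The share of all genes tested was 25.9% called higher and 28.7% called lower. The SGN markers rose in 11 of 11 cases (median 2.46), from a summed 1381 to 3173 CPM at P7 to 11806 to 17782 CPM at P22, and Schwann cell markers in 8 of 8 (median 1.16). Of the hair cell markers 7 of 10 were called lower (median −0.82), of the supporting cell markers 7 of 11 (median −0.85), and of the pillar and Deiters cell markers 4 of 9, with 3 higher (median −0.22). Fibrocyte and mesenchyme markers had a median of −2.22, bone markers −1.71, central glia markers −0.64 and blood markers 1.17.

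Scaled to markers of a cell type, several members changed sign or call with age, in alternatives chosen after seeing the data. Scaling to SGN, hair cell or supporting cell markers moved the median of all genes to −2.60, 0.69 or 0.81. Fgf1 was higher and Fgf2, Fgfr3 and Fgfrl1 were lower at P22 under all 3, with Fgf1 at 0.57 to 3.93 and Fgfr3 at −0.87 to −4.33 over all alternatives. Fgf10 turned to −1.08 and Fgfr1 to −2.45 with SGN scaling, and Spry2 to 0.05 and 0.17 with hair cell and supporting cell scaling. Under those same scalings Fgfr1 was called higher (0.84 and 0.96), while Fgfr2 (−0.27 and −0.16) and Spry4 (−0.42 and −0.30) were no longer called. Such scaling shifts all genes by nearly the same amount, so the distance of a list from the median of all genes can hardly change. For the feedback and target list that distance was −0.90, −0.89 and −0.89 in the 3 scalings, which is therefore no check of its decrease. Of its 11 genes, 11, 3 and 3 were called lower and 0, 1 and 1 called higher. Of all 16314 genes, 14722, 1854 and 1665 were called lower and 203, 9183 and 9956 higher.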

How the data were processed

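RNA-seq was analysed for cochleae of Bai1tm2b/+ and Bai1tm2b/tm2b mice at P7 and P22, each library being a pool of 4 mice with poly A selection and paired-end reads of 150 bases. The authors processed the reads with the nf-core RNA pipeline, mapped them to mm10 and quantified genes with Salmon. STAR and DESeq2 are also named in the submitters' processing notes. Versions, annotation release and use of strand are not given in the sources used here. The deposited values of the P22 libraries and of P7 replicates 5 to 7 are estimated counts, and those of P7 replicates 1 to 4 are whole numbers that sum to 999644 to 999777 per library. The latter were treated as a score, TPM rounded by the authors, so their depth is unknown and no counting interval was computed.

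Estimated counts were rounded and tested with edgeR 4.0.16 (TMM, filterByExpr, quasi-likelihood test, Benjamini-Hochberg over all genes tested). Count libraries held 31108600 to 58807200 counts. CPM came from TMM factors over the 12 count libraries, and genotype fold changes from fits within an age. TPM were tested with limma 3.58.1 with trend on log2(TMM-scaled TPM + 1), keeping genes whose mean TPM was 5 or more. SE of edgeR fits is the fold change divided by the square root of F. Age was tested over both genotypes in a fit of 4 groups, and the interaction in the same fit. Scripts were tested on simulated data with 200 changed genes. Exon lengths came from GENCODE (GRCm38). DESeq2 1.42.0, other scalings, filters, a replicate block and leaving out each library were alternatives.

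The 10 members and the lists of pathway and cell type genes were chosen with earlier results of these data known. Named genes were the members and Adgrb1, pathway genes called between genotypes, the 3 largest called changes per pathway list with age, markers called between genotypes (3 at most per list) and the 5 genes most like Fgfr3. The other feedback genes, Olig2 with its list, Ceacam16, S100a1 and the genes of Fgf2 and Fgfr3 overlaps were named in addition, after their values were seen. The correlation of deviations between equally numbered libraries was −0.23 to 0.08, so the numbers were not treated as pairs. A marker gene that met the rule for named genes is not reported here.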

Additional observations from a re-analysis of the deposited data

Results flagged for a closer look

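Values in the rounded TPM libraries at P7 were examined for single libraries that stand far from the other 3 of their group. For continuous values this check flags about 1 in 20 groups by chance. With whole numbers it flags every group of 3 equal values and 1 other, so low values are flagged more often. For Fgf1 in Bai1tm2b/tm2b, replicate 1 was at 34 TPM and the others at 45, 45 and 44 TPM. For Fgf2, replicate 4 of Bai1tm2b/+ was at 5 TPM where the others were at 3, and replicate 3 of Bai1tm2b/tm2b at 4 TPM where the others were at 5. For Fgf8, replicate 3 of Bai1tm2b/+ was at 3 TPM against 4 in the others, and replicate 2 of Bai1tm2b/tm2b at 4 TPM against 3. The steps in Fgf2 and Fgf8 are 1 or 2 units of values that were rounded to whole numbers.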

How the results depend on the processing

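The number of called members was 1 at P22, 0 in both P7 sets, 8 with age and 0 for the interaction. At P22 it became 2 with SGN marker scaling, 3 with hair cell scaling and 3 with supporting cell scaling, where the median of all genes moved to 0.30, −0.47 and −0.26. Fgfrl1 (0.53) was added under the first, and Fgf1 (−0.93 and −0.73), Fgf10 (−0.79 and −0.59) and Spry4 (−0.75 and −0.55) replaced Fgfr3 under the other two. With age the count was 6 to 9 over 20 alternatives, and the other counts kept their value. With SGN scaling Fgf1 (−0.16, adjusted p = 0.083) and Fgf10 (−0.025, adjusted p = 0.772) lost an adjusted p below 0.05. The cause of these moves was not tested.

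Signs turned at P22 for Spry4 with SGN scaling (0.0091), for Fgfr1 (−0.35), Fgfr2 (−0.34), Fgfrl1 (−0.24) and Spry2 (−0.29) with hair cell scaling and for the same genes with supporting cell scaling (−0.15, −0.14, −0.031 and −0.090). In the P7 count libraries they turned with SGN scaling for Fgf2 (0.079) and Fgfr1 (0.27), with hair cell scaling for Fgfr2 (−0.098), Fgfrl1 (−0.19), Spry2 (−0.079) and Spry4 (−0.11), and with supporting cell scaling for Fgfr1 (0.0028) and Fgfrl1 (−0.021). In the TPM libraries they turned without TMM for Fgfrl1 (0.084) and Spry2 (0.034), and with the length trend removed for Fgfr2 (−0.0033), Fgfr3 (−0.041), Fgfrl1 (0.031) and Spry2 (0.035). With age they turned for Fgf10 (−1.08), Fgfr1 (−2.45) and Spry2 (0.053 and 0.17), as described above.

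Leaving out single libraries turned signs only of values that were not called. The ranges in the P7 count libraries were −0.12 to 0.044 for Fgfr1, −0.15 to 0.20 for Fgfrl1, −0.32 to 0.0074 for Fgf2, −0.018 to 0.11 for Fgfr2, −0.0041 to 0.11 for Spry4 and −0.011 to 0.20 for Spry2. In the TPM libraries they were −0.0019 to 0.093 for Fgfr3, −0.060 to 0.0025 for Fgfrl1 and −0.029 to 0.14 for Spry4. For the interaction they were −0.30 to 3.01 for Fgf8, −0.17 to 0.22 for Fgf1, −0.21 to 0.23 for Fgf10 and −0.015 to 0.22 for Spry2. With age, Fgf8 was called without Bai1tm2b/+ P7 replicate 5 or without the low count filter, and Fgf2 lost its call in Bai1tm2b/tm2b alone (−3.05, SE 0.52).

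With the replicate number as a block, Fgfr3 at P22 was 0.69 (adjusted p = 0.0025), 1 member was called, and Fgfrl1 in the P7 count libraries turned to −0.023. The block changed no other call of a member, while in the TPM libraries it took all genes called from 97 to 0. That count was also 0 when any 1 of 6 of the 8 libraries was left out, without the filter on low values and with the length trend removed. Over all genes, leaving out 1 library moved the P22 calls between 270 and 588.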

Other observations

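The relative levels of the members differed between the P7 sets, most of all for Fgf2. Fgf2 was at 0.121 CPM per kb over the 6 P7 count libraries and at a mean of 4.13 TPM over the 8 rounded TPM libraries, a ratio of 34.0, while the median ratio of the other 9 members was 2.37. For Fgf8, which has a similar TPM value (3.50), the count libraries had 2.82 CPM per kb, a ratio of 1.24. Of the members other than Fgf2, Fgf1 had the highest ratio, 3.84, and Fgf8 the lowest. CPM per kb used the union of all annotated exons and TPM a length set by the authors' quantification. The P7 batches that the paper describes match these sets in size, but the labels do not tie a replicate to a batch. The part of length, annotation and batch in these ratios was not tested.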
